A study of Mus musculus with 4 samples.

Results

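Liver RNA collected 5 days after injection of a control adenovirus was compared with liver RNA collected 3 days after it. The control virus, Ad-LacZ, carries the bacterial beta-galactosidase gene. The genes described are those of every probe with a detection p-value under 0.01 on at least 1 of the 2 Ad-LacZ arrays, which held for 14844 of 45281 probes and, among named genes, for 8603 of 19057. The mice of both groups were Med1fl/fl, meaning that they carried a floxed Med1 allele on the C57BL6/J background, and were injected through the tail vein at 5.5 weeks of age. The series holds 4 arrays, 1 for each combination of virus (Ad-LacZ or Ad-Med1, which expresses His-tagged Med1) and day (3 or 5). All 4 groups shared the floxed allele, and the labels mention no Cre recombinase. They give neither the sex of the mice nor whether an array holds 1 animal or a pool, and no uninjected liver was analysed here. With 1 array a day there is no replicate, so every difference below describes this pair of arrays, has no test, and its error is unknown.

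Adenoviruses injected into the blood are taken up largely by the liver, by hepatocytes and by the resident macrophages known as Kupffer cells. The uptake starts an early inflammatory and interferon response, and later days bring in monocytes and lymphocytes. Livers at this age also differ between males and females, because the pattern of growth hormone release sets sex-biased programs of cytochromes P450, sulfotransferases and urinary proteins. Many liver transcripts also follow the time of day through the circadian clock and feeding.

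Hepatocyte transcripts were near the top of the range on both arrays. The transthyretin gene Ttr read 15.17 at day 3 and 15.33 at day 5 on the normalized log2 scale used throughout. Apoa1, the main protein of high-density lipoprotein, had 15.29 and 15.32. Of 27 measured apolipoprotein and plasma protein genes, 26 were detected at day 3 and 27 at day 5. The single Alb probe was dim (5.84, not detected, at day 3 and 7.59 at day 5), so it says little about albumin. Of 18 genes of pancreas, gut, kidney and fat, 5 were detected, among them the pancreatic genes Amy2a5 (13.66 and 14.02) and Cela1 (11.70 and 11.37), while Ins2, Prss2 and Cpa1 were not.

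Both Ad-LacZ arrays were dimmer than the 2 Ad-Med1 arrays, and the day 3 Ad-LacZ array was the dimmest. Its mean intensity was 350.2, against 475 on the day 5 array and 925 and 968 on the 2 Ad-Med1 arrays (here and below always day 3 first, then day 5), and it detected 12899 probes, against 14062, 14752 and 15294. Of the genes detected on at least 1 array of a pair, 18.6% differed by 2-fold or more between the 2 Ad-LacZ arrays. The 2 Ad-Med1 arrays differed that much in 7.93% of genes. The day 3 Ad-LacZ array differed from the 2 Ad-Med1 arrays in 29.4% and 29.8%, and the day 5 Ad-LacZ array differed from them in 15.9% and 17.9%. Of the 1042 genes at least 2-fold higher at day 5, 731 (70.2%) lay at least 2-fold below all 3 other arrays at day 3, and 64 (6.14%) lay at least 2-fold above all 3 others at day 5. Of the 557 genes at least 2-fold lower at day 5, 203 (36.4%) lay at least 2-fold above all 3 others at day 3, and 78 lay at least 2-fold below them at day 5. For most of the higher genes, then, the day 3 array was the one apart. What part this has in the differences below was not tested.

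**Figure D1:**
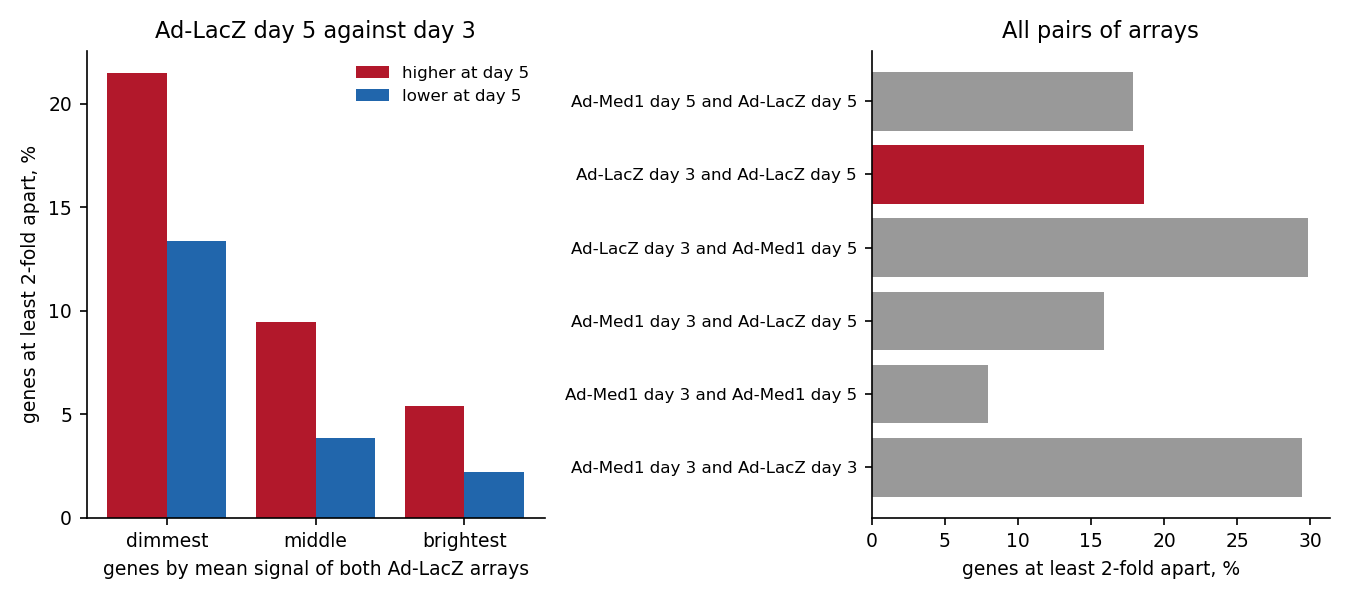
Left, the percentage of genes at least 2-fold higher (red) or lower (blue) at day 5 than at day 3 after Ad-LacZ, in 3 groups of 2867 or 2868 genes by mean signal. Right, the percentage of genes at least 2-fold apart in each of the 6 pairs of arrays, with the 2 Ad-LacZ arrays in red at 18.6%, between the 2 Ad-Med1 arrays at 7.93% and the pairs of Ad-LacZ day 3 with an Ad-Med1 array at 29.4% and 29.8%.

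Transcripts of the sex chromosomes also separated the 2 Ad-LacZ arrays. Xist, the RNA that silences 1 X chromosome in female cells, was detected by none of its 4 probes at day 3 and by all 4 at day 5, with log2 signals between 8.15 and 12.28. Eif2s3y, a Y-linked translation factor gene, had 9.52 at day 3 and was not detected at day 5, which makes it at least 8.63-fold lower. The Y-linked Uty had 7.39 at day 3 and was likewise not detected at day 5, and Kdm5d was detected at neither day. The day 3 array thus gave Eif2s3y and Uty without Xist, and the day 5 array gave Xist without those 2. Another Y-linked gene, Gm20747, was just detected at day 5 (6.54) and not at day 3 (5.84). The Ad-Med1 arrays were mixed in another way, with all 4 Xist probes detected on both, Eif2s3y at 10.54 on day 5 only, and Uty at 6.32 and 6.93. The X-linked Ddx3x had 8.38 at day 3 and 11.35 at day 5 (7.85-fold) and Eif2s3x had 9.96 and 10.76 (1.74-fold). Sex-linked transcripts and the day moved together here, so that their parts in any difference below cannot be told apart.

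**Figure D2:**
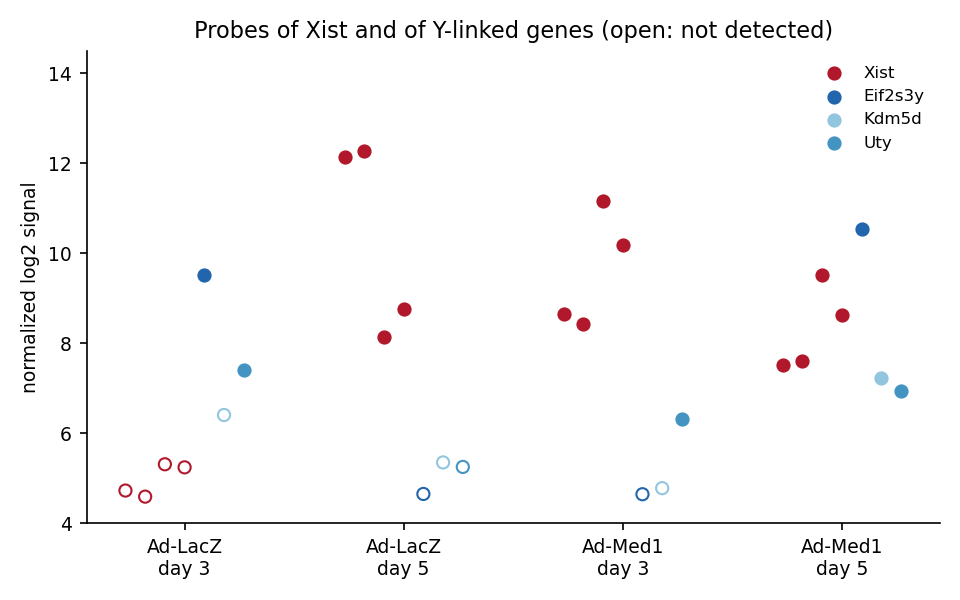
Normalized log2 signal of each probe of Xist (red) and of the Y-linked genes Eif2s3y, Kdm5d and Uty (blue shades) that was detected on at least 1 array, for the 4 arrays, with open symbols for probes not detected on that array. All 4 Xist probes are open at Ad-LacZ day 3 and lie between 8.15 and 12.28 at Ad-LacZ day 5, and Eif2s3y is at 9.52 at Ad-LacZ day 3 and open at Ad-LacZ day 5.

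Across all genes, most levels were close on both days. The median difference was -0.11 on the log2 scale, the quartiles were -0.46 and 0.35, and 5449 of 8603 genes (63.3%) were within 1.5-fold. In all, 1042 genes (12.1% of those detected) were at least 2-fold higher at day 5 and 557 (6.47%) at least 2-fold lower, so that 65.2% of the 1599 differing genes were higher. That split depended on the scaling: it was 89.1% with the arrays scaled to a common median after background correction and 89.5% with each array's median removed from the deposited intensities. These scalings put the median of all genes at 0.25 and 0.13, against -0.11 in the main setting, so a list median is best read as its distance from that shift. Differences gathered among dim genes: 34.8% of the dimmest 2868 genes were 2-fold apart, against 13.3% of the middle 2867 and 7.60% of the brightest 2868. Of the 1042 higher genes, 537 were not detected at day 3, and of the 557 lower genes 252 were not detected at day 5. With each undetected signal set at the lowest detected signal of its array, 696 and 388 genes remained 2-fold apart. Further detected probes of the higher genes had the same sign in 221 of 345 cases (64.1%), and those of the lower genes in 113 of 142 (79.6%).

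**Figure D3:**
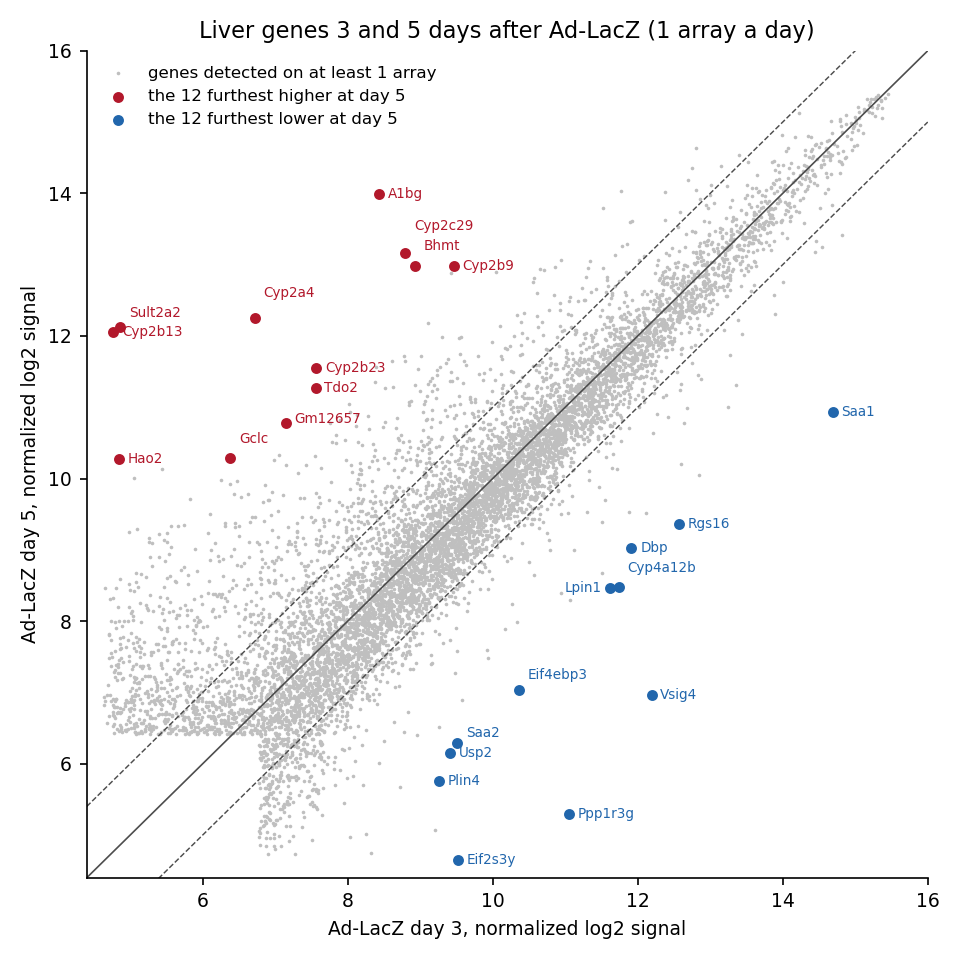
Normalized log2 signal of 8603 genes at day 3 (horizontal) and day 5 (vertical) after Ad-LacZ, 1 array a day, with the line of equality and dashed lines at 2-fold. The 12 genes furthest higher (red) run from Hao2, at least 11.3-fold, to A1bg, 47.2-fold, and the 12 furthest lower (blue) from Plin4, at least 7.21-fold, to Vsig4, 37.3-fold.

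Several of the genes furthest higher at day 5 are female-biased in mouse liver. A1bg, a secreted immunoglobulin-like plasma protein, had log2 signals of 8.43 at day 3 and 13.99 at day 5 (47.2-fold), and its other probe differed by 5.84 on the log2 scale. Cyp2a4, a steroid hydroxylase, was not detected at day 3 and had 12.25 at day 5 (at least 44.5-fold). The sulfotransferase gene Sult2a2 was not detected at day 3 and had 12.13 at day 5 (at least 40.8-fold). All 3 are higher in female than in male mouse liver. The P450 gene Cyp2b13 likewise went from undetected to 12.05 (at least 38.6-fold), Cyp2b9 from 9.46 to 12.98 (11.4-fold), and Hao2, a peroxisomal hydroxyacid oxidase, from undetected to 10.27 (at least 11.3-fold). The gene lists were chosen with earlier results of these data known, so overlap with them is no test. Among the 12 genes furthest higher, 6 belong to the female-biased list (17 of 8603 detected genes) and none to the male-biased list (27 of 8603). The other 6 were the P450 genes Cyp2c29 (8.79 and 13.17, 20.7-fold) and Cyp2b23 (7.56 and 11.55, 15.8-fold), the betaine methyltransferase Bhmt (8.92 and 12.98, 16.7-fold), the tryptophan dioxygenase Tdo2 (7.56 and 11.27, 13.1-fold), the glutathione synthesis enzyme Gclc (not detected and 10.29, at least 11.4-fold), and Gm12657 (7.15 and 10.79, 12.5-fold). Both Ad-Med1 arrays lay above Ad-LacZ day 3 for these 6, for example Cyp2c29 at 13.08 and 12.70 and Tdo2 at 11.58 and 11.76. Cyp2a4 with Cyp2a5, the Cyp2b genes among themselves and Sult2a2 with Sult2a1 are near-identical copies, so a probe may also read its neighbour and the share of each copy is uncertain.

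Of 27 measured female-biased genes, 17 were detected, and 14 were at least 1.5-fold higher and 1 lower at day 5, where the share over all genes was 18.3% in each direction. Counts of list members use the signal as measured, also where it was not detected. With such signals counted only at their bound, 13.9% of all genes were 1.5-fold higher and 17.0% lower, and of the female-biased genes 13 were higher and 1 lower. The count at the bound is given below where it differs by more than 1 gene, and for the cell cycle, interferon, Kupffer cell and class I lists. The list median was 2.63 on the log2 scale, or 1.82 with undetected signals at the lowest detected signal. At day 3, 8 of the 17 were not detected, and the day 3 array was the lowest of the 4 arrays for 13. Besides those above, Cyp17a1, a steroid synthesis enzyme, had 8.79 and 11.64 (7.23-fold), the acyl-CoA thioesterase Acot3 had 8.11 and 10.74 (6.18-fold), and Cux2, a female-biased homeobox repressor, went from undetected to 7.38 (at least 1.52-fold). Tox went the other way, from 8.36 to 7.64 (1.64-fold lower). After Ad-Med1 the same list had a median day difference of -0.44.

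Male-biased genes lay lower at day 5. Of 27 detected genes, 15 were at least 1.5-fold lower and 3 higher, with a median of -0.71, and the day 3 array was the highest of the 4 for 18. Cyp4a12b, a fatty acid hydroxylase, had 11.74 at day 3 and 8.48 at day 5 (9.54-fold lower), and the near-identical Cyp4a12a had 13.89 and 12.30 (3.00-fold lower). Hsd3b5, a steroid dehydrogenase of male liver, had 13.25 at day 3 and was lower at day 5 by a log2 difference of -2.24 (4.74-fold lower). Elovl3, a fatty acid elongase, had 9.93 and 7.49 (5.44-fold lower), and Selenbp2 had 12.60 and 10.20 (5.26-fold lower). These genes were lower but all still detected at day 5, unlike Tff3, which had 7.95 at day 3 and was not detected at day 5 (at least 2.91-fold lower). Other male-biased genes were level or higher at day 5: Mup3 had 15.26 and 15.32, Cyp2d9 14.67 and 14.85, Mup20 11.35 and 13.06 (3.27-fold higher), Serpina1e 8.21 and 9.71 (2.83-fold higher) and Ugt2b1 11.74 and 12.77 (2.03-fold higher). After Ad-Med1 the median of this list's day difference was 0.67.

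**Figure D4:**
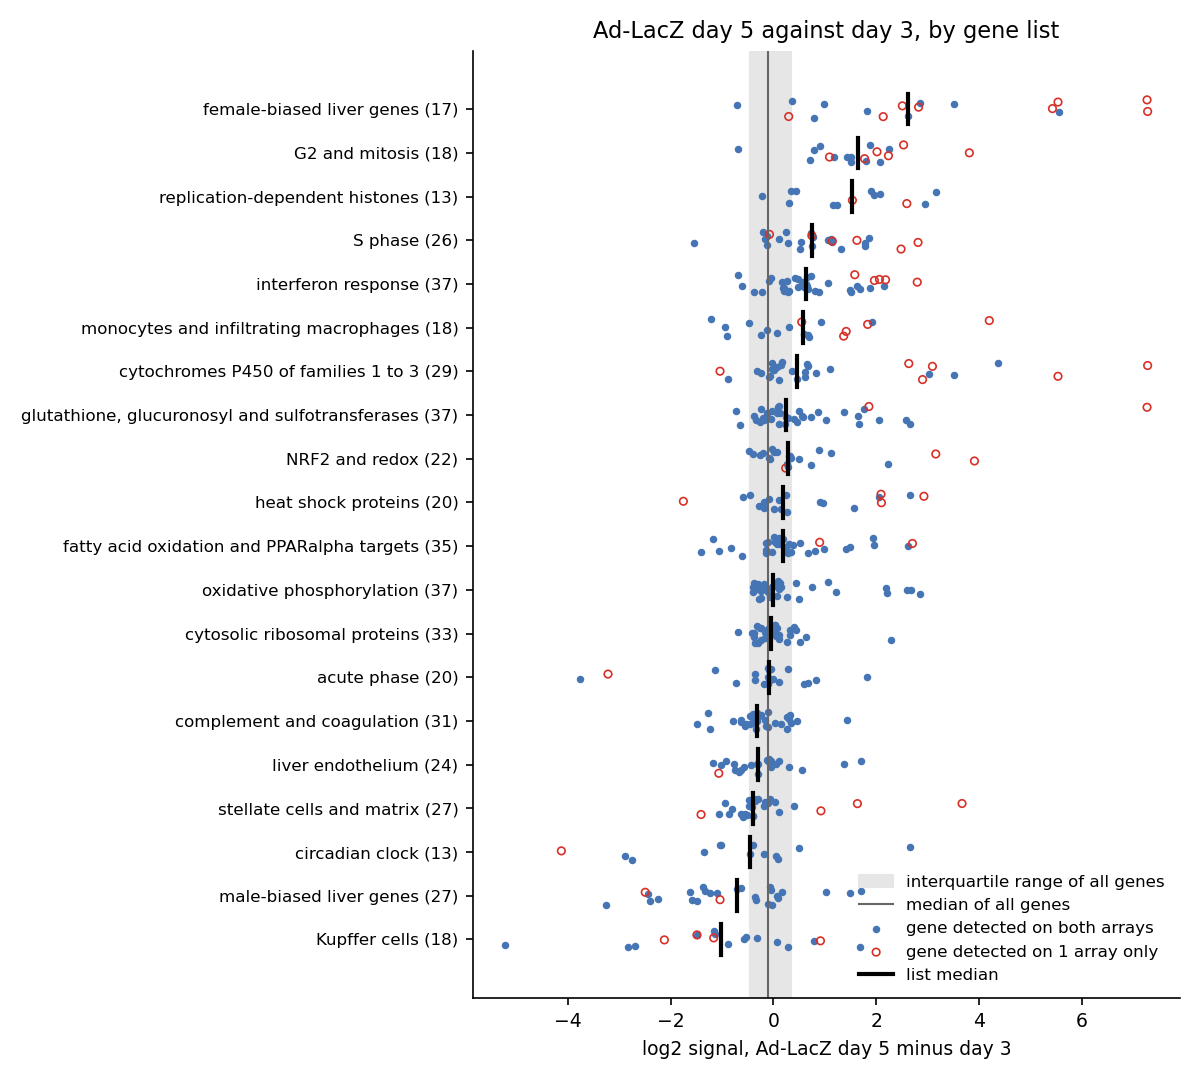
The log2 difference, day 5 minus day 3 after Ad-LacZ, of every detected member of 20 gene lists, with list size in brackets, filled points for genes detected on both arrays, open points for genes detected on 1, black bars for list medians, and the interquartile range of all 8603 genes in grey. Female-biased genes (median 2.63) and G2 and mitosis genes (1.64) lie to the right, male-biased genes (-0.71) and Kupffer cell markers (-1.01) to the left, and ribosomal protein and respiratory chain genes are centred on the median of all genes with a few far to the right.

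Genes of cell division were higher at day 5. In G2 and mitosis, 18 of 34 measured genes were detected, 17 of them at least 1.5-fold higher at day 5, all 17 also at their bound, and 1 lower, with a median of 1.64 (1.39 with undetected signals at the lowest detected signal). Cdk1, the kinase that drives entry into mitosis, had 7.31 at day 3 and 9.38 at day 5 (4.22-fold). Plk1, a kinase of spindle assembly, had 7.56 and 9.80 (4.73-fold). Aurka, a centrosome kinase, was not detected at day 3 and had 8.38 at day 5 (at least 3.03-fold), as did Stmn1, which destabilises microtubules, at 8.47 (at least 3.23-fold) and Tpx2, an activator of Aurka, at 7.65 (at least 1.84-fold). Kif23 was the exception at 12.12 and 11.43 (1.60-fold lower), but its other 2 probes were higher by 1.14 and 1.86 on the log2 scale. The day 3 array was the lowest of the 4 for 17 of the 18 genes, and the Ad-Med1 arrays lay above Ad-LacZ day 3 for all 5 genes named first: Cdk1 had 11.10 and 9.72 there and Plk1 10.91 and 8.54. Ccna2, Ccnb2, Bub1, Kif11 and 12 further members were detected on neither Ad-LacZ array.

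The promoters of many of these genes carry a motif known from late cell cycle genes. The list holds genes of that phase, so the shares below do not test the day difference. Of 14 detected G2 and mitosis genes with a RefSeq promoter (GRCm38.p6, 300 bases from 250 before the start to 50 after it), 11 (78.6%) held the CHR element TTTGAA on either strand, against 20.2% of 27025 genes in the table. The CCAAT box was held by 9 of the 14 (64.3%), against 41.1%. Stretches are shown for the genes with the CHR element that had the largest differences higher at day 5. The capitals mark the CHR element in stretches of Plk1 (chr7:122159445-122159484, plus strand), Aurka (chr2:172370521-172370558, minus strand) and Cdk1 (chr10:69352958-69353003, minus strand), each read 5′ to 3′ along its gene.
Plk1: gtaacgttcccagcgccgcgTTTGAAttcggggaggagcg
Aurka: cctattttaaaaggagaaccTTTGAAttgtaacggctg
Cdk1: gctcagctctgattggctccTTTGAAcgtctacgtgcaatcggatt
A match is a description of these letters and shows no binding.

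In S phase, 26 of 33 genes were detected, 15 at least 1.5-fold higher at day 5 (13 at their bound) and 1 lower, with a median of 0.75. Pcna, the sliding clamp of DNA polymerases, was not detected at day 3 and had 8.21 at day 5 (at least 2.71-fold). Uhrf1, which brings the methyltransferase Dnmt1 to new DNA, was not detected at day 3 and had 8.57 at day 5 (at least 3.46-fold), and Dnmt1 itself had 6.80 and 8.59 (3.45-fold). The helicase subunit Mcm6 had 7.08 and 8.87 (3.46-fold) and the ligase Lig1 6.90 and 8.76 (3.63-fold). Mcm10, another replication factor, was the 1 gene lower, at 13.27 and 11.73 (2.91-fold), and its second probe differed by -2.28 on the log2 scale. The ribonucleotide reductase gene Rrm2 was nearly level at 7.36 and 7.16, and its second detected probe differed by 0.11. The E2F core GCGGGAA was found in the promoters of 10 of 23 detected S phase genes (43.5%), against 5.29% of genes in the table.

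Replication-dependent histone genes, which cells transcribe while they copy DNA, were higher at day 5 in 9 of 13 detected genes, and none was 1.5-fold lower (median 1.54). H4c8 had 8.39 and 11.56 (9.01-fold), H2ac22 had 8.77 and 11.72 (7.70-fold), H2ac12 had 9.09 and 11.16 (4.20-fold) and H4c9 had 8.17 and 10.13 (3.90-fold). The day 5 array was the highest of the 4 for 6 of the 13, which no G2 and mitosis or S phase gene shared. Histone genes are near-identical copies, so these values cannot be given to single genes with certainty. G1 regulators showed little. Of 13 detected genes 5 had signals at least 1.5-fold higher, but 3 of these were not detected at day 3 and only 2 held at their bound (median 0.43, or 0.19 with undetected signals at the lowest detected signal). Ccne1, the cyclin of S phase entry, went from undetected to 7.04 (at least 1.20-fold). Cdk2, its kinase, had 10.08 and 11.01 (1.92-fold), but its other 2 probes were level (-0.10 and 0.01). The cyclin D gene Ccnd1 had 11.89 and 11.32.

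Genes of p53 and growth arrest were split, with 6 of 14 detected genes at least 1.5-fold higher and 2 lower (median 0.51). Cdkn1a, the p21 inhibitor of cyclin-dependent kinases, had 9.98 and 11.06 (2.12-fold), but its other 2 probes were close to level (-0.26 and 0.09). Phlda3, a p53 target that restrains Akt, went from undetected to 7.83 (at least 2.08-fold), and a second probe was higher by 2.94. Gadd45g, a stress-response gene, had 13.36 and 11.31 (4.13-fold lower), with a second probe at -3.33.

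**Figure D5:**
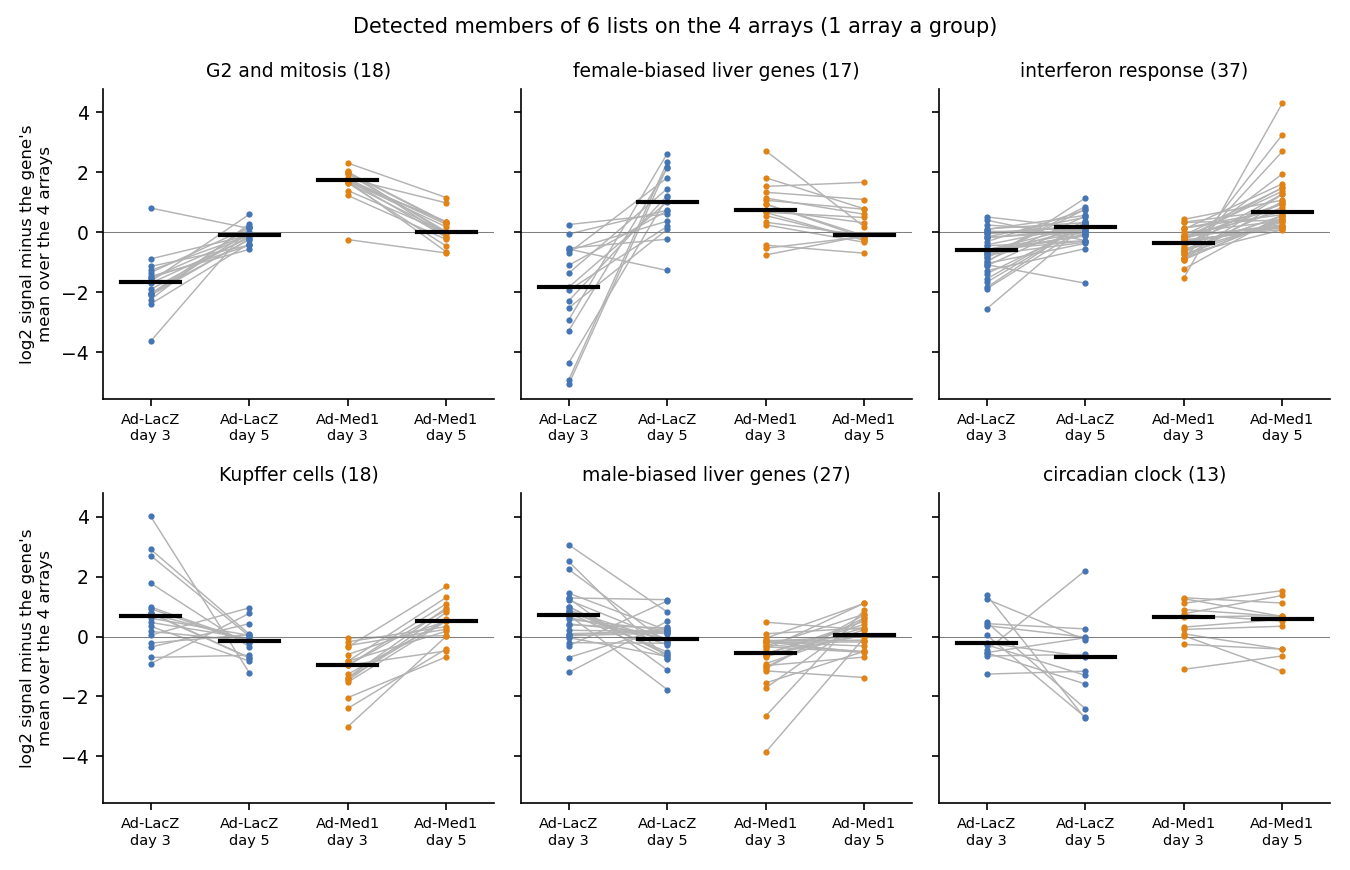
Log2 signal of each detected member of 6 lists, as the difference from that gene's mean over the 4 arrays, for Ad-LacZ (blue) and Ad-Med1 (orange) at day 3 and day 5, with grey lines joining the 2 days of a virus and black bars at list medians. G2 and mitosis genes are lowest at Ad-LacZ day 3 for 17 of 18 genes, and the female-biased genes for 13 of 17.

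Interferon-response genes were more often higher than lower at day 5. Of 37 detected genes out of 45 measured, 20 were at least 1.5-fold higher (19 at their bound) and 2 lower, with a median of 0.64. Tgtp1, an interferon-inducible GTPase, was not detected at day 3 and had 7.59 at day 5 (at least 1.75-fold). Oasl1, an oligoadenylate synthetase-like protein, had 8.05 and 10.19 (4.43-fold), with its other 2 probes higher by 0.80 and 1.19. The transcription factor Irf8 (8.47, at least 3.22-fold) and the ubiquitin ligase Trim30a (8.59, at least 3.52-fold) were detected at day 5 only, as was the double-stranded RNA sensor Ifih1 at 6.82 (at least 1.03-fold). Several classical members were level: Isg15, a ubiquitin-like modifier, had 10.11 and 9.73, and Ifitm3 had 14.32 and 14.24. The day 5 array was the highest of the 4 for 8 of the 37 genes, and the median day difference after Ad-Med1 was 1.14.

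Promoters of 30 of the 37 interferon genes were in the RefSeq table, and 18 of them (60.0%) held the core of the interferon response element, GAAANNGAA, on either strand, against 9.76% of genes in the table. Stretches with the core in capitals are shown for Tgtp1 (chr11:48992295-48992343), Ifih1 (chr2:62646339-62646387) and Trim30a (chr7:104446094-104446142), all on the minus strand of GRCm38.p6. Of the genes that held the core, these were picked for the largest differences higher at day 5. All 3 were not detected at day 3 and detected at day 5, so that choice says nothing about the motif. In Ifih1 and Trim30a the core lies on the strand opposite to the gene.
Tgtp1: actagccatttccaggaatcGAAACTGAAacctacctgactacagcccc
Ifih1: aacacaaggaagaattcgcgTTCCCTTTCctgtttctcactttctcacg
Trim30a: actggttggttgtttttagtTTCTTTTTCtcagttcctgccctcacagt
No match in the promoters of the other 12 genes says only that these letters are not in that window.

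Antigen presentation genes had no common direction. Class I and immunoproteasome genes had 5 of 16 at least 1.5-fold higher (4 at their bound) and none lower, with a median of 0.04, or 0.66 under median scaling. As distances from the median of all genes these medians were 0.15 and 0.41. H2-K1 had 11.89 and 13.60 (3.26-fold), its other 2 probes being higher by 0.65 and 3.50, whereas B2m had 15.01 and 14.99. Of 8 detected class II genes, Cd74, H2-Ab1 and H2-Eb1 were between 1.60-fold and 1.67-fold lower at day 5, although 1 of the 2 other H2-Ab1 probes was level (-0.07). Ctss, a lysosomal protease (6.95 and 9.50, 5.84-fold), and H2-Aa (9.03 and 10.68, 3.14-fold) were higher.

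Kupffer cell markers were lower at day 5, and here and below fewer cells of a type and less RNA per cell cannot be told apart. Of 18 detected genes out of 19 measured, 10 were at least 1.5-fold lower (9 at their bound) and 3 higher, with a median of -1.01 (-0.73 with undetected signals at the lowest detected signal). Vsig4, the complement receptor of Kupffer cells, had 12.19 at day 3 and 6.97 at day 5, 37.3-fold lower. Clec4f, a lectin that marks mouse Kupffer cells, had 11.51 and 8.68 (7.12-fold lower), and Folr2 had 9.58 and 6.89 (6.44-fold lower). Cd163 had 7.54 at day 3 and was not detected at day 5 (at least 2.19-fold lower). The general macrophage gene Adgre1 went the other way, from 8.85 to 10.53 (3.20-fold higher), and C1qa, shared by many macrophages, had 9.86 and 8.69 (2.24-fold lower). Both Vsig4 and Clec4f were undetected on the Ad-Med1 array of day 3 and at 7.77 and 8.61 on that of day 5. Cd5l was detected on neither Ad-LacZ array.

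Monocyte and infiltrating macrophage markers leaned the other way, with 9 of 18 detected genes at least 1.5-fold higher (7 at their bound) and 3 lower (median 0.58, or 0.10 with undetected signals at the lowest detected signal). Clec7a, a fungal pattern receptor of myeloid cells, went from undetected to 9.30 (at least 5.74-fold), but a second probe differed by 0.39. Mpeg1, a pore-forming protein of macrophages, had 9.44 and 11.36 (3.79-fold). Cd14, the endotoxin co-receptor, had 8.03 and 6.82 (2.32-fold lower). Of 18 neutrophil genes 8 were detected, and they were split: S100a9 had 7.39 and 8.46 (2.10-fold), Wfdc21 had 9.56 and 11.99 (5.39-fold), and Il1b had 7.50 at day 3 and was not detected at day 5 (at least 2.12-fold lower). The defining granule genes Mpo, Elane, Camp and Ltf were detected on neither array. Of 30 T and NK cell genes, 6 were detected, 3 of them at least 1.5-fold higher and 2 lower. Ccl5 had 8.04 and 9.05 (2.01-fold) and Cd3d had 6.82 and 7.03. Icos had 7.08 at day 3 and was not detected at day 5 (at least 1.59-fold lower). Cd8b1 had 10.68 and 9.76 (1.89-fold lower), though a second probe was higher by 1.45. Cd3e, Cd8a, Gzmb and Nkg7 were detected on neither array. Of 9 B cell genes only Cd79b was detected.

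Markers of other non-parenchymal cells were mixed. Among endothelial genes 8 of 24 were at least 1.5-fold lower and 2 higher (median -0.30, or -0.04 under median scaling). As distances from the median of all genes these medians were -0.20 and -0.29. The sinusoidal scavenger receptor Stab2 had 10.54 and 9.36 (2.27-fold lower), while Lyve1, a hyaluronan receptor of the same cells, had 7.92 and 9.63 (3.26-fold higher). Among stellate cell and matrix genes 6 of 27 (22.2%) were lower, near the share of all genes, and 3 were higher (1 at its bound, median -0.39, or -0.08 under median scaling). Their medians lay -0.28 and -0.33 from the median of all genes. Collagen genes disagreed among themselves: Col3a1 went from undetected to 9.33 (at least 5.87-fold higher) and Col1a1 from 6.85 to undetected (at least 1.35-fold lower). Haemoglobin signal was somewhat lower at day 5, with Hba-a1 at 14.63 and 14.06, a log2 difference of -0.56. With Ad-Med1, Hba-a1 had 9.10 and 14.11. Of 9 detected erythroid genes 2 (22.2%) were higher and 2 lower, near the share of all genes, with a median of -0.48. Only 2 of 11 cholangiocyte genes and 3 of 10 platelet genes were detected.

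Of 13 detected clock genes, 6 were at least 1.5-fold lower at day 5, 1 was higher and 6 were within 1.5-fold. Dbp, a clock output factor whose RNA swings strongly over the day, had 11.91 at day 3 and 9.02 at day 5 (7.42-fold lower). Per1, a repressor in the clock loop, had 9.26 and 6.51 (6.70-fold lower), with a second probe at -2.91. Ciart, another clock repressor, had 9.20 and was not detected at day 5 (at least 6.92-fold lower). Arntl, the activator that peaks when these repressors and outputs are low, had 7.11 and 9.77 and was the 1 gene higher (6.33-fold). The lower genes also included Nr1d1 (8.75 and 7.40, 2.56-fold), Per2 (9.40 and 8.36, 2.06-fold, second probe -0.58) and Tef (9.95 and 8.93, 2.02-fold). With Ad-Med1, Dbp had 12.70 and 12.10, Per1 10.32 and 10.74, and Arntl 6.47 and 6.92. The Ad-LacZ array of day 5 was the lowest of the 4 for Dbp and Per1 and the highest for Arntl. The labels do not give the hour at which the mice were killed, so hour and day cannot be told apart.

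Clock factors bind the E-box CACGTG, which reads the same on both strands. It was found in the promoters of 3 of 10 detected clock genes in the table (30.0%), against 8.09% of genes in the table. A matching promoter of each of the 3 is shown with the E-box in capitals, from Ciart (chr3:95882319-95882364, minus strand), Per1 (chr11:69098763-69098808, plus strand) and Tef (chr15:81802526-81802571, plus strand). All 3 genes were lower at day 5, as were 9 of all 13 detected clock genes at any size of difference.
Ciart: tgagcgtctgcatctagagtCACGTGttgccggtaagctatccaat
Per1: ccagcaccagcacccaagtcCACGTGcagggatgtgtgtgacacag
Tef: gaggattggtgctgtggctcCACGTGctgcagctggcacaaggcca
The Ciart promoter holds the E-box 3 times and the others once.

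Among the other genes furthest lower at day 5 were several of metabolism and signalling, which share no list. Ppp1r3g, a glycogen-targeting subunit of protein phosphatase 1, had 11.05 at day 3 and was not detected at day 5 (at least 25.0-fold lower), with a second probe at -2.19. Rgs16, a brake on G protein signalling, had 12.57 and 9.37 (9.22-fold lower), and Usp2, a deubiquitinase, had 9.41 and was not detected at day 5 (at least 7.98-fold lower). The phosphatidate phosphatase Lpin1 had 11.62 and 8.46 (8.94-fold lower), with a second probe at -3.98. The translation inhibitor gene Eif4ebp3 had 10.36 and 7.04 (9.97-fold lower), and Plin4, a lipid droplet coat protein, had 9.26 and was not detected at day 5 (at least 7.21-fold lower). All 6 were higher on both Ad-Med1 arrays than on Ad-LacZ day 5: Usp2 had 11.13 and 11.37 there and Lpin1 11.15 and 11.57.

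Acute phase genes were level as a list and far apart in the serum amyloid A genes. Saa1 had 14.69 at day 3 and 10.93 at day 5 (13.5-fold lower, with a second probe at -3.64 on the log2 scale). Saa2 had 9.51 and was not detected at day 5 (at least 8.55-fold lower). These copies are near-identical, so each probe may read both. The leucine-rich glycoprotein Lrg1 had 14.46 and 13.33 (2.19-fold lower), whereas Saa3 had 9.57 and 10.40 (1.79-fold higher). The hepcidin copy Hamp2, which is also on the female-biased list, had 12.81 and 14.63 (3.54-fold higher). Of 20 detected genes 4 were 1.5-fold higher and 4 lower, with haptoglobin (Hp) at 15.27 and 15.08, and the list median of -0.09 turned to 0.42 under median scaling. In the list of immediate early and regeneration genes, 6 of 17 were lower and 2 higher (median -0.34). Zfp36, which promotes decay of inflammatory RNAs, had 11.88 and 9.54 (5.07-fold lower), and Junb had 8.76 and 7.55 (2.31-fold lower). The interleukin 6 receptor gene Il6ra had 11.51 and 9.39 (4.35-fold lower, its other 2 probes at -2.35 and -1.71). Btg1 had 11.17 and 12.49 (2.50-fold higher), though a second probe differed by 0.23. In complement and coagulation 6 of 31 (19.4%) were lower, near the 18.3% of all genes, and 1 was higher. C9 had 14.44 and 13.17 (2.42-fold lower, though its other 2 probes were higher by 0.36 and 2.46) and Cfb had 11.52 and 12.95 (2.71-fold higher).

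Drug-metabolising genes were more often higher than lower at day 5. Of 29 detected P450 genes of families 1 to 3, the female-biased ones above included, 14 were at least 1.5-fold higher and 2 lower (median 0.47). Cyp2c39 went from undetected to 8.11 (at least 2.51-fold), while Cyp1a2, a major P450 of the pericentral zone, had 13.60 and 12.72 (1.84-fold lower) and the bright Cyp2f2 had 14.55 and 14.47. Of 37 glutathione, glucuronosyl and sulfotransferase genes, 12 were higher and 2 lower (median 0.25). Gsta1 had 8.16 and 10.22 (4.17-fold, its other 2 probes higher by 2.24 and 2.34) and Gsta2 had 7.83 and 10.49 (6.32-fold). With Ad-Med1, Gsta2 had 12.43 and 13.19. Ugt2b34, a glucuronosyltransferase, had 8.96 and 11.54 (5.94-fold). Among NRF2 and redox genes 6 of 22 were higher and none lower (median 0.27). The thioredoxin reductase Txnrd1 went from undetected to 8.01 (at least 2.34-fold) and thioredoxin, Txn1, from 9.13 to 11.37 (4.71-fold), but the classical NRF2 target Nqo1 had 7.22 and 7.57.

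Genes of lipid metabolism showed no common direction. In fatty acid synthesis 4 of 26 were at least 1.5-fold higher and 7 lower. Thrsp, a lipogenic regulator, had 12.85 and 10.05 (6.96-fold lower, second probe -3.62), and Lpin2 had 11.07 and 8.29 (6.87-fold lower, second probe -2.68). Elovl2, an elongase of polyunsaturated fatty acids, had 10.19 and 11.82 (3.09-fold higher). In cholesterol synthesis 3 of 17 (17.6%) were higher, near the 18.3% of all genes, and 1 was lower. Idi1, the isopentenyl isomerase, went from undetected to 10.14 (at least 10.3-fold higher), whereas Sqle and Cyp51 were level at 11.15 and 11.30 and at 11.46 and 11.44. Of 35 fatty acid oxidation and PPARalpha target genes, 10 were higher and 5 lower. Hadh, a mitochondrial beta-oxidation enzyme, went from undetected to 9.20 (at least 5.36-fold higher), Ehhadh, its peroxisomal counterpart, had 9.42 and 11.37 (3.87-fold higher), and Angptl4, a lipoprotein lipase inhibitor, had 13.44 and 12.03 (2.66-fold lower). In bile acid genes 5 of 22 (22.7%) were higher and 3 (13.6%) lower, against 18.3% of all genes in each direction. Baat, which conjugates bile acids, had 10.95 and 13.06 (4.33-fold higher). Cyp7b1, an oxysterol hydroxylase that is male-biased, had 12.83 and 11.45 (2.60-fold lower). Cyp7a1, the rate-limiting enzyme of bile acid synthesis, had 11.56 and 12.12 (1.47-fold higher).

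Genes of glucose and amino acid metabolism were also mixed. Of 26 glucose and glycogen genes 2 were at least 1.5-fold higher and 5 (19.2%) lower, the latter near the 18.3% of all genes. Pck1, the gatekeeper of gluconeogenesis, had 8.25 and 9.50 (2.38-fold higher), but a second probe differed by -0.13. The insulin receptor substrate Irs2 had 10.20 and 8.84 (2.56-fold lower). In amino acid breakdown and the urea cycle 7 of 37 (18.9%) were higher, near the 18.3% of all genes, and 4 were lower. Besides Bhmt and Tdo2, Kmo, of the kynurenine pathway, had 9.23 and 11.52 (4.90-fold higher), Csad, of taurine synthesis, had 10.71 and 12.93 (4.68-fold higher) and Glul, the glutamine synthetase of pericentral hepatocytes, went from undetected to 9.01 (at least 4.70-fold higher). Urea cycle genes went little or the other way, with Ass1 at 14.68 and 13.84 (1.78-fold lower) and Asl at 11.76 and 11.09 (1.59-fold lower). Among ATF4 targets 7 of 16 were lower and 3 higher. Ddit4, an inhibitor of mTORC1, had 10.94 and 8.40 (5.83-fold lower) and the pseudokinase Trib3 had 10.17 and 7.89 (4.87-fold lower, second probe -1.77), while Atf4 itself had 11.42 and 12.66 (2.37-fold higher, second probe 0.45).

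Genes of basic cell function mostly lay near the median of all genes, with a few far higher at day 5. Of 37 respiratory chain and ATP synthase genes 8 (21.6%) were at least 1.5-fold higher, near the 18.3% of all genes, and none lower. The median of -0.01 was above 0 under both other scalings, as was the median of all genes. The ATP synthase subunit gene Atp5a1 had 10.04 and 12.89 (7.21-fold), but a second, dimmer probe differed by -0.24. The complex I subunit gene Ndufb9 had 9.30 and 11.98 (6.42-fold), and with Ad-Med1 it had 12.52 and 12.26. The other 29 of the 37 were within 1.5-fold. Among 33 ribosomal protein genes the median of -0.05 was likewise above 0 under both other scalings, and Rpl7a alone was over 2-fold higher. Of 27 proteasome genes 5 (18.5%) were higher, near the 18.3% of all genes, and 1 was lower, with Psmd6 furthest. Of 20 heat shock genes 8 were higher and 2 lower: Hsp90aa1 had 8.62 and 11.28 (6.32-fold, second probe 3.58 higher), the mitochondrial chaperonin Hspe1 had 10.09 and 12.14 (4.13-fold), and Hspa8 had 13.66 and 13.48. The ER chaperone Hspa5 went from undetected to 9.32 (at least 5.84-fold), but Herpud1, an ER stress gene, had 14.54 and 13.25 (2.45-fold lower).

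Among Mediator subunits 3 of 28 (10.7%) were at least 1.5-fold higher and 3 lower, below the 18.3% of all genes in each direction. Med1 had 7.98 and 9.25 on its brightest probe (2.42-fold higher at day 5) and 7.27 and 7.47 on the other detected probe, which is not a 1.5-fold difference.

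The day difference after Ad-LacZ was set beside that after Ad-Med1, which shares no array with it. Over the 7191 genes detected on all 4 arrays the 2 day differences had a Pearson r of -0.15 and a Spearman rho of -0.14 across genes, which are not independent replicates. Of the 1042 genes at least 2-fold higher at day 5 after Ad-LacZ, 65 (6.24%) were also 2-fold higher at day 5 after Ad-Med1, where 5.02% of all 9267 genes detected on those arrays were. The opposite, 2-fold lower after Ad-Med1, held for 101 (9.69%), against 2.91% of all, and 740 (71.0%) were within 1.5-fold. Of the 557 lower genes, 10 (1.80%) were also lower, 46 (8.26%) were higher, read against the same 2.91% and 5.02%, and 435 (78.1%) were within 1.5-fold. Interferon genes were higher at day 5 after both viruses (medians 0.64 and 1.14), and G2 and mitosis genes were higher after Ad-LacZ and lower after Ad-Med1 (1.64 and -1.60). Whether the viruses differ in these respects was not tested.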

How the data were processed

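Mouse liver RNA on 4 Illumina arrays was analysed, 1 array per group, grouped by their titles. Trizol extraction, column clean-up with DNase, a Bioanalyzer check and biotin labelling are recorded in the labels' protocols. The deposited table held a linear probe intensity that was not normalized, per the file headers, and the authors' series values were identical to it (largest difference 0). The same deposited table gives a detection p-value for every probe and array. Not given in the sources used here: scanner software and bead summary.

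Values were corrected and normalized over the 4 arrays with neqc of limma 3.58.1 in R 4.3.3 (normexp with an offset of 16, quantile normalization, log2), which was tested on simulated data. Python 3.11.15 with numpy 2.4.6, pandas 2.3.3 and matplotlib 3.10.9 did the rest. A probe was detected at p under 0.01. The largest detection p among the probes kept was 0.00962 (116 probes) and the smallest among those left out 0.0107 (324 probes). Names came from the platform annotation (34885 probes with 1 symbol, 18 with several, 10378 with none), updated through gene identifiers in a GRCm38.p6 table that held 34807 of them (99.8%). Of the 14844 detected probes, 1984 had no single name and enter only the probe counts. A gene was represented by its probe with the highest mean over the 4 arrays. Where the dim side was undetected, a fold is a lower bound against the lowest detected log2 signal of that array, or the undetected value itself where that was higher (6.78 at day 3, 6.41 at day 5), and no fold is given where that bound is under 1.

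Differences are log2 day 5 minus day 3 and are called at 2-fold, or 1.5-fold for members of a list. The number of arrays limits the precision, and no test was possible. The text names the 12 genes furthest in each direction, fixed control genes, and per list described up to 5 members with the largest differences and 3 against the list's direction. Named outside that rule, after their values were seen, were Asl in the amino acid list, B2m, C1qa, Ccnd1, Cd3d, Cux2, Cyp17a1, Cyp1a2, Cyp2d9, Cyp2f2, Cyp4a12a, Cyp51, Cyp7a1, Gm20747, Hp, Hspa8, Ifitm3, Isg15, Kif23, Mup3, Nqo1, Per2, Rrm2, Sqle, Tef and Tox. The 49 lists and the members were chosen with earlier results of these data known. Promoters (250 bases before the start to 50 after) came from RefSeq, GRCm38.p6; 5 motifs were searched one by one on both strands, so overlapping motifs each counted, and a gene counted if any of its promoters matched. Each motif was paired with a gene list and not with the day difference, so its share does not test that difference. The settings tried are described with the results' dependence on the processing.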

Additional observations from a re-analysis of the deposited data

Results flagged for a closer look

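These lists and genes had a day difference of one sign after Ad-LacZ and of the opposite sign after Ad-Med1. Each value is log2 day 5 minus day 3 from 1 array a day, and the difference between the viruses was not tested. S phase genes had a median of 0.75 after Ad-LacZ and -0.59 after Ad-Med1. G2 and mitosis genes had 1.64 and -1.60, and replication-dependent histones 1.54 and -1.08. Kupffer cell markers had -1.01 and 1.91, and male-biased liver genes -0.71 and 0.67.

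Among genes furthest higher at day 5, Sult2a2 had 7.27 after Ad-LacZ and -2.54 after Ad-Med1, Cyp2b13 had 7.28 and -1.04, and Bhmt had 4.06 and -1.29. Among those furthest lower, Vsig4 had -5.22 and 1.99, Ppp1r3g -5.76 and 1.29, Cyp4a12b -3.25 and 3.55, and Plin4 -3.50 and 1.30. The sex-linked genes also went opposite ways, with Eif2s3y at -4.87 and 5.90. Xist was at 2.84 and -1.66 on its probe with the highest mean over the 4 arrays. Its other probes differed by 3.53, 7.42 and 7.69 after Ad-LacZ. The Kupffer cell gene Clec4f had -2.83 and 3.02. Signals that were not detected enter these differences at their own low values.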

How the results depend on the processing

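No paired analysis was possible because each group held 1 array and the labels give no replicate numbers. The 1042 genes higher and 557 lower at day 5 became 633 and 74 with each array's median removed from the deposited intensities, 505 and 305 over genes detected on both arrays, 1576 and 1578 at 1.5-fold, and 581 and 166 at 3-fold. The lower count alone left the range within 1.5 times of its main value with median scaling (163), an offset of 50 (358) and no detection filter (890). Of 391 list medians under another setting, 369 stayed within 0.585 of the main value on the log2 scale, which is 1.5-fold, 20 moved further, and 2 that were beyond 1.5-fold took the opposite sign. Smaller medians took the opposite sign more often, in 12 of 49 under median scaling and 10 of 49 with array medians removed. Under median scaling those lists include acute phase, complement, glucose, ATF4 targets, oxidative phosphorylation, ribosomal proteins and Mediator. As distances from the median of all genes, none of these named lists changed sign under that scaling. The distances, main setting first, were 0.02 and 0.18 for acute phase, -0.22 and -0.13 for complement, and -0.15 and -0.04 for glucose. They were -0.20 and -0.19 for ATF4 targets, 0.10 and 0.30 for oxidative phosphorylation, 0.06 and 0.21 for ribosomal proteins, and -0.08 and -0.09 for Mediator. Median scaling moved the medians of MHC class I genes to 0.66, P450 genes to 1.06 and transferases to 0.85. Those medians include the shift of all genes, whose own median went from -0.11 to 0.25 under that scaling. As distances from that median they went from 0.15 to 0.41 for MHC class I genes. P450 genes went from 0.57 to 0.81 and transferases from 0.353 to 0.605. Removing array medians gave G2 and mitosis 0.86 and Kupffer cells -0.29. Female-biased genes had 1.93 with the offset of 50, 1.82 over genes detected on both arrays, 1.82 with undetected signals at the lowest detected signal and 0.93 without a filter. ATF4 targets had -0.95 over genes detected on both arrays. Without a filter G2 and mitosis had 0.75 and neutrophils 0.16. Neutrophils turned to -0.10 with undetected signals at the lowest detected signal, and platelets, from 3 genes, to -0.83 over genes detected on both arrays. Averaging all probes of a gene gave other abdominal tissue 0.51. Beyond the shift of all genes and the fewer or more genes that a filter leaves, the cause of these moves was not tested. Of 996 values of named genes under 4 other settings, 686 stayed within the same limit and 310 moved further; none with a difference of 2-fold or more changed sign. Signal over background limits the dim genes most.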

Other observations

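The 3 Y-linked genes detected on either Ad-LacZ array included 2 at least 2-fold lower at day 5, and of 236 detected genes on the X chromosome 29 (12.3%) were at least 2-fold higher and 13 (5.51%) lower, shares near those of all genes. By chromosome the share of higher genes was highest on chromosome 13, at 63 of 319 genes (19.7%), among the chromosomes with over 100 detected genes, and lowest on chromosome 17, at 38 of 447 (8.50%).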
